A study of Mus musculus with 4 samples.

Results

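The genes described here are 10 markers of macrophages, read on all 13 of their probe sets that carry 1 gene symbol in the platform annotation, out of 34945 such probe sets of 18193 genes. Cd68, Csf1r, Adgre1, C1qa, Ctss, Cx3cr1 and Lgals3 served as pan-macrophage markers. Cd163, Mrc1 and Retnla mark resident or alternatively activated macrophages. The genes were chosen by their known use as macrophage markers and selected on their d/d minus f/f differences in heart and muscle on these same 4 arrays, so those values are a description, with no test. The rule has no threshold.

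Total RNA of mouse tissue was read on 4 arrays, with 1 array for each genotype in each tissue: d/d and f/f heart, and d/d and f/f muscle. The d/d (del/del) mice are MnSOD-deficient in heart and muscle and came from crossing mice homozygous for a floxed MnSOD gene (Sod2, flox/flox) with MCK-Cre mice. The f/f mice are flox/flox and labelled control, although their sample titles also carry the words for MnSOD-deficient. All 4 samples thus derive from the floxed line. MCK, the muscle creatine kinase promoter, drives Cre in heart and skeletal muscle fibres, so the deletion is aimed at muscle cells and not at the macrophages among them. The sources used here do not give whether f/f mice carried the transgene, the animals' age, how many were pooled for a sample, or which muscle was taken. With 1 array per group there is no replicate check, and every difference below describes a pair of arrays.

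Macrophages settle in heart and muscle before birth and are later joined by cells from blood monocytes. The receptor encoded by Csf1r, bound by CSF1 or IL-34, keeps them alive, and resident cells in these tissues commonly carry the scavenger receptor CD163, the mannose receptor (Mrc1) and the folate receptor Folr2. Macrophages drawn into damaged tissue tend to lack those receptors at first and to make galectin-3, cathepsins and phagocytic proteins. IL-4 and IL-13, acting through STAT6, are known to induce Retnla and Mrc1, which is called alternative activation.

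Signals are given after each array was scaled to a common 2% trimmed mean, in linear intensity units. Signals under a floor of 7.51 were set to that floor before log2 differences, d/d minus f/f, were taken. A difference counts as past 2-fold at 1 or more on the log2 scale. As a technical yardstick, log2 differences of probe sets of 1 gene scattered with an SD of 0.39 in heart (5375 genes) and 0.40 in muscle (5207 genes), which says nothing of the spread between animals. Between 58.0% and 61.1% of probe sets lay above the floor on each array. Sod2 was lower on 4 of 4 probe sets in d/d heart, with log2 differences of -1.22 to -0.21, and on 3 of 4 in d/d muscle, with a range of -0.44 to 0.06. Whether these probe sets cover the stretch removed by Cre was not examined, so they leave the genotype labels unchecked.

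The heart arrays carried the defining genes of heart and the muscle arrays those of skeletal muscle. Tnni3, cardiac troponin I, read 4667 in d/d heart against 5308 in f/f heart, and Tnni2, fast skeletal troponin I, read 10128 in d/d muscle against 9717 in f/f muscle. Tnni3 read 8.30 in d/d muscle against 86.8 in f/f muscle, 10.5-fold lower. Of 7 cardiac markers measured in muscle, 4 more were past 2-fold lower in d/d, against 3.25% of all measured genes. These were Mybpc3 (4.61-fold), Nppa (4.14-fold), Tnnt2 (2.72-fold) and Myh6 (2.51-fold). The part of this difference in cardiac markers in the macrophage results was not tested. In heart Ryr2 was 2.24-fold lower in d/d, and of the skeletal markers Acta1 was 3.11-fold higher and Atp2a1 at least 3.20-fold lower. Except for Cx3cr1, all probe sets of the members lay above the floor on all 4 arrays.

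In d/d heart all 7 pan-macrophage markers read higher than in f/f heart on their brightest probe sets, Csf1r by less than the yardstick. Cd163 and Retnla read lower there and Mrc1 differed little. In d/d muscle 5 of the 6 measured pan-macrophage markers were lower, Lgals3 was higher, and Cd163 and Retnla were again lower, by similar amounts to those in heart. Past 2-fold in heart were 3 members on the high side (Lgals3, Ctss and Cx3cr1) and 2 on the low side (Cd163 and Retnla), against 3.94% of 13836 measured genes higher and 4.22% lower. Cx3cr1 was past 2-fold on its brighter probe set only. In muscle 0 of 9 measured members were past 2-fold higher and 2, Cd163 and Retnla, were past it lower, against 2.64% and 3.25% of 14256 measured genes. Since measured values guided the choice of members, nothing is read from these counts against the background. In bulk RNA, more or fewer macrophages and more or less of a transcript per cell cannot be told apart.

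**Figure D1:**
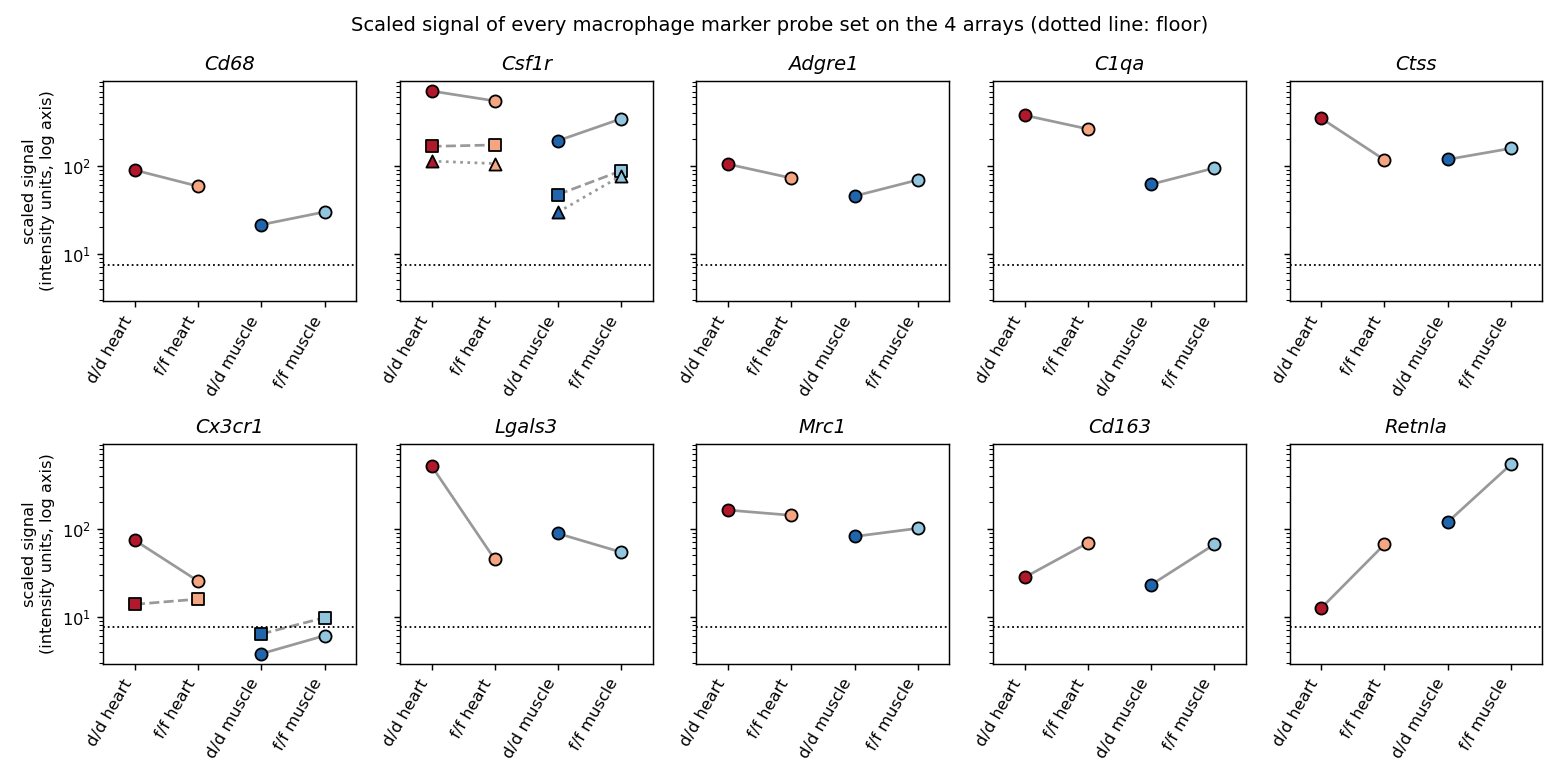
Scaled signal (linear intensity units, log axis) of each of the 13 probe sets on the 4 arrays, with circles for the brightest probe set of a gene and squares and triangles for dimmer ones, and the floor of 7.51 as a dotted line. The lines for Cd163 and Retnla run the same way in heart and muscle, with d/d below f/f, while Lgals3 stands at 517 in d/d heart against 44.6 in f/f heart.

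Lgals3, which encodes the carbohydrate-binding protein galectin-3 made by activated macrophages and also by other cells, read 517 in d/d heart against 44.6 in f/f heart. It read 88.0 in d/d muscle against 54.0 in f/f muscle. The d/d heart array stood far above the other arrays, which lay between 44.6 and 88.0. The difference was 11.6-fold in heart, a log2 difference of 3.53, and 14 of 13836 measured genes (Lgals3 included) stood that high or higher. In d/d muscle Lgals3 was 1.63-fold higher, a log2 difference of 0.71. Of the 9 members measured in both tissues, Lgals3 was the only one above 0 in both. Of the other galectins, Lgals1, with the highest mean signal, was 1.76-fold higher in heart and 1.17-fold lower in muscle. Lgals8 and the galectin-3-binding protein gene Lgals3bp were level in heart, at log2 differences of 0.02 and 0.01. Lgals4, a galectin of the gut lining, read 14.2 in d/d heart against 70.8 in f/f heart. The 7 genes of the galectin list measured in heart besides Lgals3, Lgals3bp among them, had a median log2 difference of 0.02. Of these 0 were past 2-fold higher and 2 lower, Lgals4 and Lgals2, against 3.94% and 4.22% of all measured genes. Lgals2 read 7.60 in d/d heart, just over the floor, against 16.8 in f/f heart, and Lgals7, not measured in heart, was at least 2.55-fold lower in d/d muscle.

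Ctss, cathepsin S, a lysosomal protease of antigen-presenting cells, read 348 in d/d heart against 117 in f/f heart, and 119 in d/d muscle against 158 in f/f muscle. The heart difference was 2.97-fold, a log2 difference of 1.57. In muscle Ctss was 1.33-fold lower, at -0.42. The d/d heart array stood apart, and the f/f heart array lay close to the muscle arrays.

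Cx3cr1, the receptor for the chemokine fractalkine, carried by patrolling monocytes and many resident macrophages, was read by 2 probe sets that differed from each other. The brighter read 73.3 in d/d heart against 25.2 in f/f heart, which is 2.90-fold higher, and was below the floor on both muscle arrays. The dimmer read 13.8 in d/d heart against 15.8 in f/f heart, 1.15-fold lower. In muscle the dimmer was below the floor in d/d and read 9.74 in f/f, at least 1.30-fold lower. The higher level of Cx3cr1 in d/d heart therefore rests on 1 probe set. Its ligand gene Cx3cl1, measured as 1 of the ligand and receptor genes, was 2.09-fold higher in d/d heart and 1.63-fold lower in d/d muscle, and a dimmer probe set was at least 2.06-fold higher in heart and at least 2.13-fold lower in muscle.

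Cd68, a lysosomal membrane glycoprotein of macrophages, read 89.5 in d/d heart against 58.7 in f/f heart, and 21.5 in d/d muscle against 30.0 in f/f muscle. Adgre1, which encodes the F4/80 antigen, read 105 in d/d heart against 72.8 in f/f heart, and 45.4 in d/d muscle against 69.3 in f/f muscle. C1qa, a chain of complement C1q that tissue macrophages secrete, read 377 in d/d heart against 263 in f/f heart, and 61.8 in d/d muscle against 94.6 in f/f muscle. These genes were 1.43-fold to 1.53-fold higher in d/d heart and 1.40-fold to 1.53-fold lower in d/d muscle. On the log2 scale they differed by 0.52 to 0.61 in heart and by -0.62 to -0.48 in muscle, beyond the probe set yardstick of 1 SD but short of 2-fold. Differences as high or higher were held by 10.5% to 13.3% of all genes measured in heart. Those as low or lower were held by 9.92% to 14.4% of all genes measured in muscle.

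Csf1r, the receptor on which macrophage survival depends, was read by 3 probe sets. The brightest read 710 in d/d heart against 548 in f/f heart, or 1.30-fold higher, while the dimmer probe sets had log2 differences of 0.09 and -0.05. Each of these is smaller than the yardstick of 0.39, and the sign of the heart difference turns when the median over probe sets, -0.05, is taken for the gene. In muscle the brightest read 194 in d/d against 344 in f/f, 1.78-fold lower, and the others were 1.87-fold and 2.60-fold lower, so that all 3 lay below 0 by more than the yardstick. Csf1r was the pan-macrophage marker with the smallest difference in heart and the lowest one in muscle on the probe sets that represent the genes.

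Cd163, the haemoglobin scavenger receptor of resident macrophages, read 27.9 in d/d heart against 68.7 in f/f heart. It read 23.0 in d/d muscle against 66.1 in f/f muscle. Both d/d arrays lay well below both f/f arrays, and heart and muscle were at nearly the same level within a genotype. Cd163 was 2.46-fold lower in d/d heart (log2 difference -1.30) and 2.88-fold lower in d/d muscle (-1.53). Differences that low or lower were held by 262 of the 13836 genes measured in heart, and by 87 of the 14256 measured in muscle.

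Retnla, a small secreted protein of the resistin family also known as FIZZ1, read 12.5 in d/d heart against 66.1 in f/f heart. It read 118 in d/d muscle against 536 in f/f muscle. Retnla was 5.30-fold lower in d/d heart (log2 difference -2.41) and 4.53-fold lower in d/d muscle (-2.18), the lowest member in both tissues. Counting Retnla, 12 genes lay that low or lower in heart and 15 in muscle. The d/d heart signal lay not far above the floor, and raising the floor to the 60th percentile gave a heart difference of -1.80.

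Mrc1, the mannose receptor CD206, read 163 in d/d heart against 142 in f/f heart, and 81.4 in d/d muscle against 101 in f/f muscle. Its log2 differences, 0.20 in heart and -0.31 in muscle, were smaller than the yardsticks of those tissues. Mrc1 thus did not share the low d/d readings of Cd163 and Retnla.

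Differences between members within a tissue do not depend on a factor applied to a whole array. Against the pan-macrophage median, which was 0.61 in heart and -0.55 in muscle, Cd163 stood 3.75-fold lower in heart and 1.97-fold lower in muscle. Retnla stood 8.09-fold below that median in heart and 3.10-fold in muscle. Mrc1 stood 1.33-fold below it in heart and 1.18-fold above it in muscle, and Lgals3 stood 7.59-fold above it in heart and 2.38-fold in muscle. Without Lgals3 the median of the remaining pan-macrophage markers was 0.57 in heart and -0.61 in muscle.

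**Figure D2:**
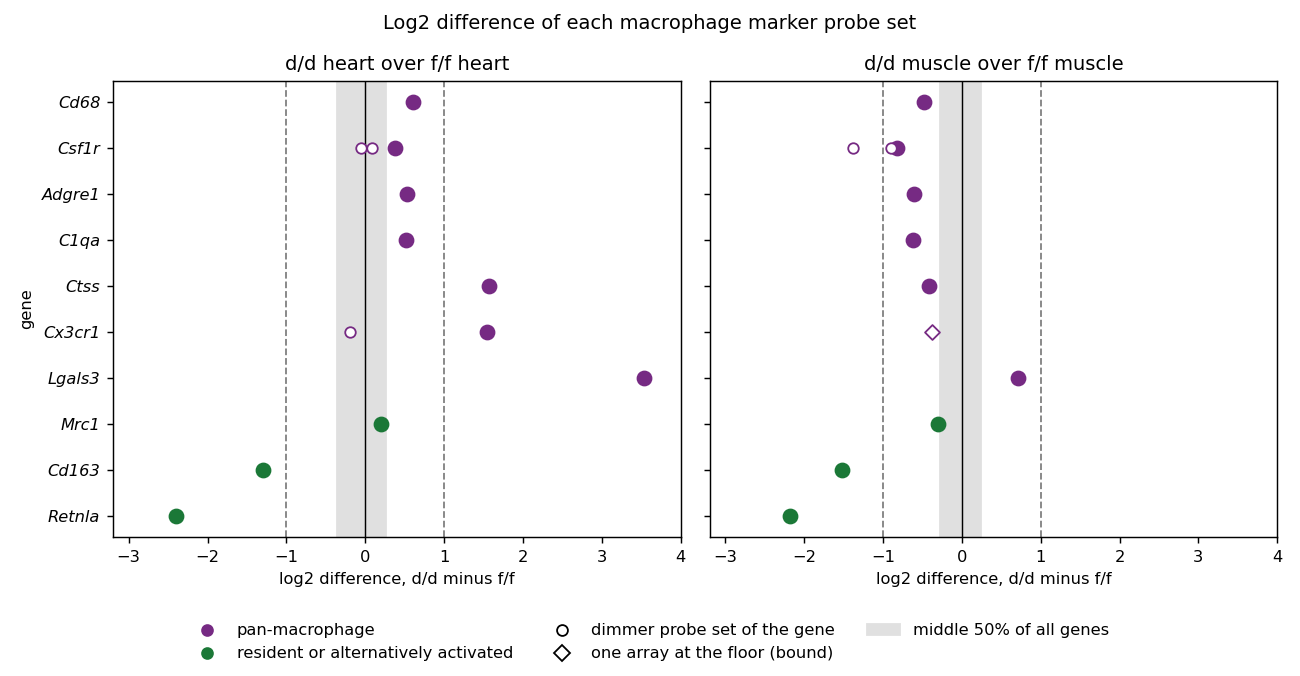
Log2 difference, d/d minus f/f, of each probe set in heart (left) and muscle (right), with filled points for the probe set that represents a gene, open points for dimmer ones a diamond for a bound, dashed lines at 2-fold and a band for the central quartiles of all measured genes. The filled points of the pan-macrophage markers lie right of 0 in heart and, except Lgals3 at 0.71, left of 0 in muscle, with open points of Csf1r at -0.05 and Cx3cr1 at -0.20 left of 0 in heart, while Cd163 and Retnla lie left of -1 in both.

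Promoter sequences were available for 7 of the 10 members, as 300 bases from 250 before to 50 after the start of the gene (RefSeq, build GRCm38.p6). They are shown for Retnla and Cd163, the members lower in both tissues, and for Lgals3 and Ctss, pan-macrophage members past 2-fold in heart. The window of Cx3cr1, also past 2-fold there on 1 of its probe sets, held no match to the motifs searched and is not shown. Capitals mark matches on either strand to GAGGAA, the core of sites for PU.1, a regulator of macrophage genes, the STAT6 motif (TTC and GAA with any 4 bases between them), TTGCNNAA (C/EBP factors) and TGCTGA (part of the sites of MAF factors). The Retnla window lies at chr16:48842359-48842658 on the plus strand, that of Cd163 at chr6:124304401-124304700 on the plus strand, that of Lgals3 at chr14:47373610-47373909 on the plus strand, and that of Ctss at chr3:95526536-95526835 on the plus strand.
Retnla: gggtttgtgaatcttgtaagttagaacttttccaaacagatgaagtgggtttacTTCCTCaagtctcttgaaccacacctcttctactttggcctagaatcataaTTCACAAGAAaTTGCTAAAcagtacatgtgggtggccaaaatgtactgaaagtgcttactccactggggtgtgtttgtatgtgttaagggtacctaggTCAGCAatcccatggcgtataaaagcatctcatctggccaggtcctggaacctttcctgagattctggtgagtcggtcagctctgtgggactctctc
Cd163: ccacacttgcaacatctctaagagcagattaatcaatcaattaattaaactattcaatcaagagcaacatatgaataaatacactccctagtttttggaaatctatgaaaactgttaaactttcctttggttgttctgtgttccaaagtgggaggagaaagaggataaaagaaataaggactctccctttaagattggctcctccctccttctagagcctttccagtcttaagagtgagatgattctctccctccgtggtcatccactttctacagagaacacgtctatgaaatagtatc
Lgals3: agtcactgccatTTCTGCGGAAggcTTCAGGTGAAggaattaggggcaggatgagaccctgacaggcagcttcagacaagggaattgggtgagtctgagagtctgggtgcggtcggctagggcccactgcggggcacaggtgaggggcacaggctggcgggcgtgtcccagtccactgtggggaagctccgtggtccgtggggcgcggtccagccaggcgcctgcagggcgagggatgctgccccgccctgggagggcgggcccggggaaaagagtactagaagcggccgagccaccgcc
Ctss: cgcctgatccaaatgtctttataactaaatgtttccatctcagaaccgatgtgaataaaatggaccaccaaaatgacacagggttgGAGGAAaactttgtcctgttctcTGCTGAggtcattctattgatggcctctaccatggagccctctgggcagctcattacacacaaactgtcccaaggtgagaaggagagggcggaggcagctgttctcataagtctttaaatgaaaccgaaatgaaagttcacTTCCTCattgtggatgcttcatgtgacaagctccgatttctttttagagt

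The Retnla window held 1 match to each of the 4 motifs, with the STAT6 match starting at -145 and the C/EBP match at -134 from the start site. The Cd163 window held none. The Lgals3 window held 2 STAT6 matches, and that of Ctss held 2 PU.1 matches and 1 MAF match. Over the 7 members, 4 had a PU.1 match, 2 a STAT6 match, 2 a C/EBP match and 2 a MAF match, and the 15 matches did not overlap one another (0 overlaps). Of all 32851 promoters in the set, 28.3% held the PU.1 letters, 6.95% those of STAT6, 10.8% those of C/EBP and 19.5% those of MAF. A match describes letters and not a bound site, and Retnla and Cd163, alike in direction, did not share a motif.

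Other genes of resident or alternatively activated macrophages leaned the same way as Cd163 and Retnla, but by much smaller amounts. Of 18 measured in heart 13 were below 0, with a median log2 difference of -0.27, and of 16 measured in muscle 12 were below 0, with a median of -0.31. The median over all measured genes was -0.05 in heart, with 45.4% of genes above 0, and -0.003 in muscle, with 49.6% above 0. Of 15 measured in both tissues 10 were lower in both, against 26.7% of 12711 genes. Past 2-fold lower in heart were 2, Folr2 and Cd209f, and 0 were past it higher, against 4.22% and 3.94% of all measured genes.

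Folr2, the folate receptor of resident macrophages, read 22.8 in d/d heart against 62.1 in f/f heart, 2.73-fold lower, and 16.8 in d/d muscle against 28.1 in f/f muscle, 1.67-fold lower. Cd209f, a C-type lectin gene, was under the floor in d/d heart and read 22.2 in f/f heart, at least 2.95-fold lower, and was 1.30-fold lower in muscle. Stab1, the scavenger receptor stabilin-1, read 105 in d/d heart against 96.7 in f/f heart, and 11.0 in d/d muscle against 28.2 in f/f muscle, 2.56-fold lower in muscle. Ccl24, a chemokine of alternatively activated cells, was the only gene past 2-fold higher, at least 2.21-fold in d/d muscle, where it read 16.6 in d/d and was below the floor in f/f. Arg1, arginase 1, read 14.0 in d/d heart and was under the floor on the other arrays, and Chil3, both classical genes of alternative activation in the mouse, was over the floor in d/d heart only, at 7.78. Gas6, a ligand that bridges dying cells to phagocytes, had the highest mean signal of the list and was 1.40-fold higher in heart and 1.15-fold higher in muscle.

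Other pan-macrophage genes lay mostly on the same side as the pan-macrophage members. Of 17 measured in heart 15 were above 0, against 45.4% of all measured genes, with a median of 0.72. There 6 were past 2-fold higher, against 3.94% of all measured genes. Of 18 measured in muscle 14 were below 0, with a median of -0.54, while 49.6% of all measured genes were above 0. There 1, Spi1, was past 2-fold lower, against 3.25% of all. Of 17 measured in both tissues 12 were higher in heart and lower in muscle, against 24.1% of all 12711 genes. Mpeg1, which encodes the pore-forming protein perforin-2, read 203 in d/d heart against 48.3 in f/f heart, 4.20-fold higher, and 29.9 in d/d muscle against 28.9 in f/f muscle.

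The tetraspanin Cd53 was 2.74-fold higher in d/d heart, the Fc receptor Fcgr1 2.62-fold, Ms4a7 2.54-fold, Laptm5 2.13-fold, with 1 dim probe set at least 1.54-fold lower, and Cd14, a co-receptor for bacterial lipopolysaccharide, 2.07-fold. In muscle the first 4 of these were 1.44-fold to 1.66-fold lower, and Cd14 read 25.4 in d/d against 25.4 in f/f. Spi1, which encodes PU.1, read 17.1 in d/d heart against 23.9 in f/f heart, and 9.16 in d/d muscle against 19.0 in f/f muscle. Lyz2, lysozyme, had the highest mean signal of the list and was nearly level in heart, at 674 in d/d against 661 in f/f, and 1.52-fold lower in muscle.

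**Figure D3:**
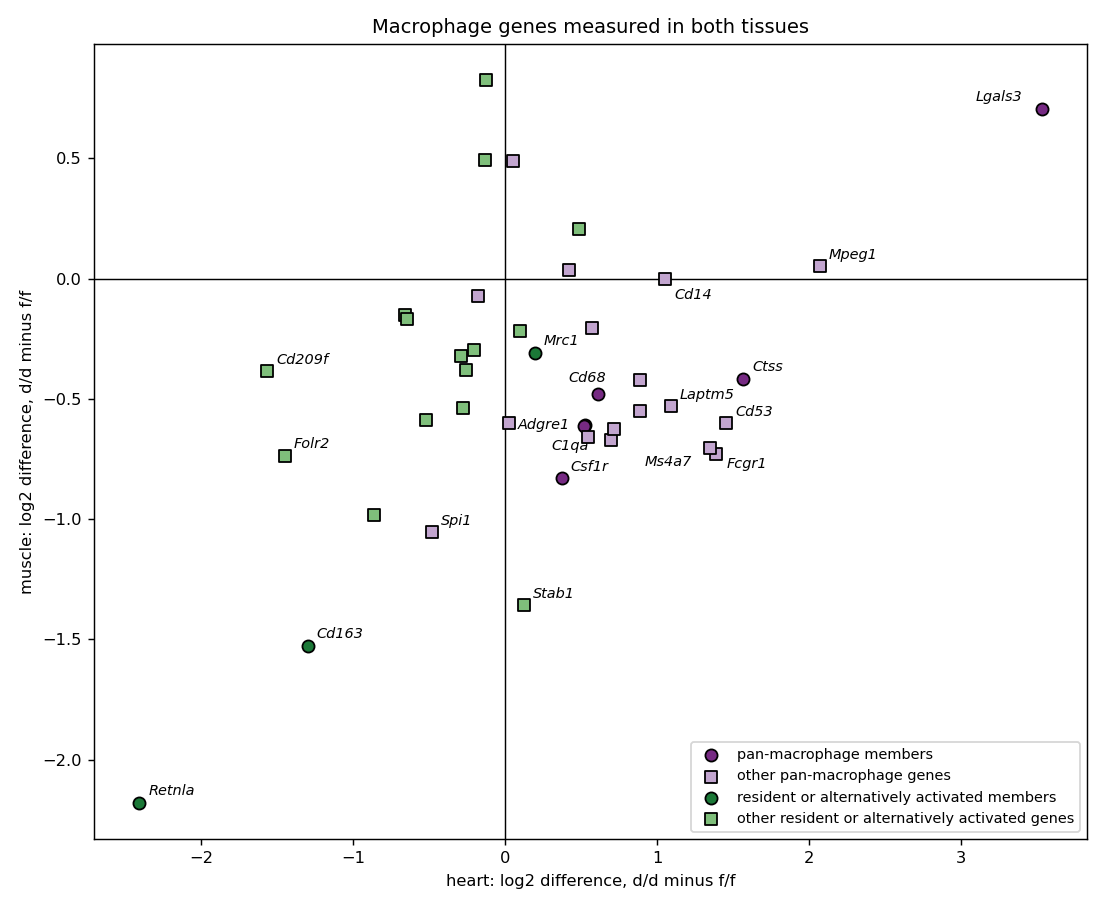
Log2 difference, d/d minus f/f, in heart (x axis) and in muscle (y axis) of the macrophage genes measured in both tissues, with circles for the members and squares for other genes of each kind. Resident or alternatively activated genes gather at the lower left, with 10 of the 15 other such genes lower in both, and pan-macrophage genes at the lower right, with 12 of the 17 other such genes higher in heart and lower in muscle.

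Genes of recruited monocytes and inflammatory macrophages were mostly above 0 in heart and mixed in muscle. In heart 12 of 13 measured, out of 18 on the arrays, were above 0, against 45.4% of all measured genes, with a median of 0.60. Past 2-fold higher were 4, against 3.94% of all measured genes. In muscle 6 of 14 were above 0, against 49.6% of all, with a median of -0.18. There 2 were past 2-fold lower, against 3.25% of all. Chil3, which the resident list also holds, counts as above 0 in heart by a bound of 0.05. Gpnmb, a glycoprotein of lipid-laden and phagocytic macrophages, read 59.0 in d/d heart and was below the floor in f/f heart, at least 7.86-fold higher, and differed by 1.07-fold in muscle. Plac8, a monocyte gene, was 2.06-fold higher in heart, at 22.1 in d/d against 10.7 in f/f. Fn1 and Thbs1, matrix genes that fibroblasts express as well, were 3.43-fold and 2.41-fold higher in heart. In muscle Fn1 had a log2 difference of -1.32, and Thbs1 was 1.91-fold lower on its brighter probe set and 3.67-fold lower on its dimmer one.

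The monocyte chemokine Ccl2 read 10.4 in d/d heart against 20.2 in f/f heart, was below the floor in d/d muscle and read 20.5 in f/f muscle, at least 2.73-fold lower there. Its receptor gene Ccr2, which marks cells recently come from blood, read 23.3 in d/d heart against 18.4 in f/f heart, 1.26-fold higher. Its other measured probe sets were at least 2.76-fold and 1.82-fold higher in heart, so the size of its difference depends on the probe set. The classical inflammatory gene Nos2 was below the floor on all 4 arrays, as was Clec4e, and Il1b was 1.60-fold higher in heart, at 28.1 in d/d against 17.5 in f/f. Fabp5, a fatty acid binding protein, had the highest mean signal of the list and differed by 0.07 in heart and 0.19 in muscle.

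Among the ligands and receptors around Csf1r and Retnla, 8 of the 11 measured non-members were above 0 in heart, counting Stat6, which was level. Over all measured genes 45.4% were above 0 there. The list median of 0.52 in heart became 0.07 when the median over probe sets stood for a gene. In muscle 7 of 12 were below 0, with a median of -0.18, while 49.6% of all measured genes were above 0. The brightest probe set of Csf1, the main ligand of the receptor, read 94.4 in d/d heart against 144 in f/f heart, 1.53-fold lower. Its other probe sets were 2.46-fold lower, 1.60-fold lower and 1.84-fold higher, so the Csf1 probe sets did not point one way. Il34, the other ligand, read 21.5 in d/d heart and was below the floor in f/f heart, at least 2.86-fold higher, and was 2.49-fold lower in d/d muscle, at 8.18 in d/d against 20.4 in f/f. Its direction was thus opposite in heart and muscle. Csf2ra, a chain of the GM-CSF receptor, was 1.47-fold higher in heart and 2.17-fold lower in muscle.

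Il4 read 7.69 in d/d heart and 11.1 in d/d muscle and was below the floor on both f/f arrays, and Il13 was below the floor on all 4. Il4ra, the receptor chain through which both cytokines signal, was 1.82-fold higher in heart and 1.83-fold lower in muscle. Stat6 had the highest mean signal of the non-members of this list and was level, at 199 in both hearts and at 107 in d/d muscle against 106 in f/f muscle. These are RNA levels, the activity of the STAT6 protein was not measured, and a link to the low d/d readings of Retnla was not tested.

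The classical complement genes lay mostly on the same side as C1qa. All 8 measured non-members were above 0 in heart, with a median of 0.72, against 45.4% of all measured genes. In muscle 7 of 8 were below 0, with a median of -0.46, while 49.6% of all measured genes were above 0. Fibroblast markers, given below, leaned the same way in both tissues, and which cells these transcripts came from was not tested. C1qb and C1qc, the other chains of C1q, which the pan-macrophage list above also holds, were 1.46-fold and 1.62-fold higher in heart and 1.58-fold and 1.59-fold lower in muscle, close to C1qa at 1.43-fold and 1.53-fold. C1ra, a protease of the C1 complex, was 2.12-fold higher in heart. C2, the next protease of the pathway, was at least 3.31-fold higher on its brightest probe set, but 1 of its others was at least 1.10-fold lower and another was below the floor. C3ar1, the receptor for a fragment of complement C3, was 1.59-fold higher in heart and 2.55-fold lower in muscle, and 1.07-fold and 1.75-fold lower on its other probe sets there. Serping1, the C1 inhibitor, had the highest mean signal of the list and was 1.81-fold higher in heart and 1.26-fold lower in muscle.

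Of the lysosomal genes other than Ctss, 10 of 12 were above 0 in heart, with a median of 0.30, against 45.4% of all measured genes. In muscle 8 of 12 were below 0, with a median of -0.08, while 49.6% of all measured genes were above 0. Ctsz, cathepsin Z, was 2.46-fold higher in d/d heart, at 672 in d/d against 273 in f/f, and 2.96-fold and 2.59-fold higher on its other probe sets. Ctsk, cathepsin K, a collagen-degrading protease, was 2.19-fold higher in heart and 2.19-fold lower in muscle. Cst3, an inhibitor of cysteine cathepsins, had the highest mean signal and was 1.30-fold higher in heart. Of the genes of antigen presentation by MHC class II, 5 of 8 measured were above 0 in heart, with a median of 0.44, against 45.4% of all. In muscle 6 of 6 were below 0, with a median of -0.28, while 49.6% of all genes were above 0. On the brightest probe sets 0 passed 2-fold in either tissue. Over all measured genes, 3.94% were past it higher and 4.22% lower in heart, and 2.64% and 3.25% in muscle. H2-Aa, with the highest mean signal, was 1.18-fold higher in heart on that probe set. On another it was 3.11-fold higher in heart and 1.56-fold higher in muscle. Dimmer probe sets of H2-Ab1 were 2.51-fold and 2.10-fold higher in heart. Cd86 was at least 2.31-fold higher in heart on a dimmer probe set and 1.14-fold lower on its brightest.

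**Figure D4:**
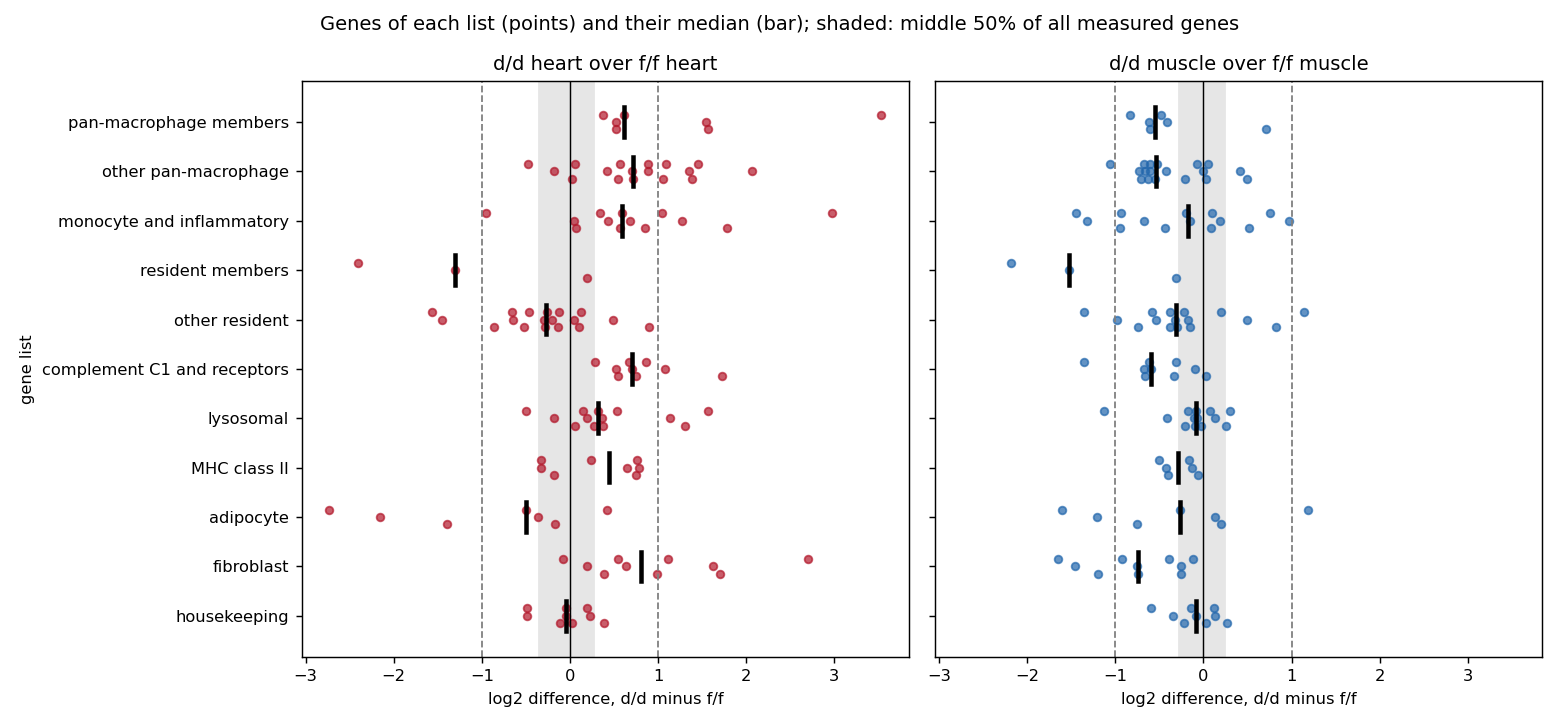
Log2 difference, d/d minus f/f, of each measured gene (points) in 11 gene lists, with the list median as a bar and a band for the central quartiles of all measured genes, in heart (left) and muscle (right). Pan-macrophage, inflammatory and complement medians lie between 0.60 and 0.72 in heart and the fibroblast median at 0.81, while the medians of the resident lists lie at -1.30 and -0.27.

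Markers of other cells differed alongside the macrophage genes, and their part in these results was not tested. Of 10 fibroblast markers 9 were above 0 in heart, with a median of 0.81, against 45.4% of all measured genes. In muscle 10 of 10 were below 0, with a median of -0.75, while 49.6% of all measured genes were above 0. Past 2-fold higher in heart were Postn (6.51-fold), Col1a2, Col1a1 and Pi16, against 3.94% of all measured genes. Past 2-fold lower in muscle were Pi16 (3.14-fold), Col1a1 and Col1a2, against 3.25% of all. The summed signal of the 10 fibroblast markers was 11940 in d/d heart against 6473 in f/f heart, and 4622 in d/d muscle against 7307 in f/f muscle. The summed signal of the 7 pan-macrophage members was 2220 in d/d heart against 1130 in f/f heart, and 533 in d/d muscle against 756 in f/f muscle. Of these sums Lgals3, which other cells make as well, supplied 517 in d/d heart, 44.6 in f/f heart, 88.0 in d/d muscle and 54.0 in f/f muscle.

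Adipocytes are a further source to set beside Retnla, since it is also expressed in adipose tissue. Of 7 adipocyte markers measured, 6 were below 0 in heart, with a median of -0.50, and 4 below 0 in muscle, with a median of -0.26. Over all measured genes 45.4% were above 0 in heart and 49.6% in muscle. Adipoq, adiponectin, read 10.4 in d/d heart against 46.6 in f/f heart, 4.47-fold lower, and 40.5 in d/d muscle against 93.4 in f/f muscle, 2.30-fold lower. Lipe, hormone-sensitive lipase, was 2.62-fold lower in heart and 1.20-fold lower in muscle, and Car3, carbonic anhydrase 3, was 6.64-fold lower in heart. Pparg was at least 2.28-fold higher in muscle, and Fabp4, with the highest mean signal of the list, had log2 differences of -0.17 in heart and 0.20 in muscle. Lep, Cidec and Ucp1 were below the floor on all 4 arrays. The summed signal of the list was 3677 in d/d heart against 4452 in f/f heart, and 10744 in d/d muscle against 9911 in f/f muscle. In heart most of it came from Fabp4, at 3369 in d/d and 3799 in f/f. In muscle most of it came from Car3, which muscle fibres express. Whether the Retnla differences come with the adipocyte genes was not tested. Retn, the resistin gene of adipocytes, was 1.29-fold lower in heart and at least 3.05-fold lower in muscle, and Retnlb was below the floor on all 4 arrays.

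Markers of other leukocytes were low. Of 9 lymphocyte markers 4, Cd3e, Cd3g, Cd4 and Nkg7, were below the floor on all 4 arrays, and the summed signal of the list was 45.4 to 64.5. The B cell genes Cd79b and Cd79a ran opposite ways in d/d heart, at least 2.63-fold higher and 2.21-fold lower. Of 9 neutrophil markers 4 were, Cxcr2, Mmp8, Camp and Elane, with a summed signal of 86.0 to 107. S100a8 was 2.42-fold higher and Ngp 2.18-fold lower in d/d muscle, and Csf3r at least 2.49-fold lower in d/d heart. Of 6 dendritic cell markers 2 were, Xcr1 and Siglech, with a summed signal of 53.6 to 75.8. Mast cell markers, 0 of 7 of which were below the floor everywhere, summed to 60.1 in d/d heart against 89.6 in f/f heart, and to 169 in d/d muscle against 216 in f/f muscle. Cpa3 was at least 2.60-fold lower and Kit 2.07-fold higher in d/d heart, and Mcpt4 was 2.08-fold lower in d/d muscle. Endothelial markers had a median of 0.37 in heart and 0.09 in muscle. The control probe sets for 18S ribosomal RNA read 1.64-fold to 2.58-fold higher on the d/d heart array than on the f/f heart array, and at ratios of 0.85 to 1.02 in muscle. Ratios of the 3' to the 5' control probe set of Gapdh were 0.90 in d/d heart against 0.85 in f/f heart, and 0.85 in d/d muscle against 0.87 in f/f muscle.

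Levels in heart were also set against those in muscle, probe set by probe set, within a genotype. In d/d mice all 7 pan-macrophage markers read over 2-fold higher in heart than in muscle, from 2.31-fold for Adgre1 to at least 9.76-fold for Cx3cr1, against 15.1% of 14124 measured genes. The d/d contrast contains the d/d minus f/f differences on which the members were selected, so nothing is read from this count against the background. With housekeeping scaling Adgre1, at 0.96 on the log2 scale, was short of 2-fold. In f/f mice 2 of the 7, C1qa at 2.78-fold and Cx3cr1 at a bound of 3.36-fold, were past 2-fold higher in heart, against 12.1% of 14364 genes. Without scaling 4 of the 7 were, with Cd68 at 1.40 and Csf1r at 1.10 on the log2 scale, and with the floor raised to the 60th percentile Cx3cr1, at 0.41, was not. Ctss and Lgals3 were 1.35-fold and 1.21-fold lower in f/f heart than in f/f muscle, and 2.94-fold and 5.87-fold higher in d/d heart than in d/d muscle. Ordered by level, Lgals3 stood highest in d/d heart, then d/d muscle, f/f muscle and f/f heart, the last 2 at a log2 distance of 0.27, less than either d/d minus f/f yardstick. Without scaling, f/f heart stood above f/f muscle for Lgals3, by 0.16, and level with it for Ctss, and scaling to the 75th percentile put f/f heart below f/f muscle for Adgre1 and Cd163, at -0.08 and -0.10.

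Among the resident or alternatively activated markers the tissue pattern was different. Retnla was 9.50-fold lower in d/d heart than in d/d muscle and 8.12-fold lower in f/f heart than in f/f muscle, against 10.5% and 8.3% of genes past 2-fold lower. From high to low its order was f/f muscle, d/d muscle, f/f heart and d/d heart. Cd163 was 1.22-fold higher in d/d heart than in d/d muscle and 1.04-fold higher in f/f heart than in f/f muscle, both less than the d/d minus f/f yardsticks. Mrc1 was higher in d/d heart than in d/d muscle by 0.997 on the log2 scale, just short of 2-fold, and 1.41-fold higher in f/f heart than in f/f muscle.

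Genes with profiles like those of the members were found by the root mean square distance over the 4 arrays between profiles centred on their own mean, among 10529 genes above the floor on all 4. Closest to the mean profile of the 7 pan-macrophage members were Bicc1, Slamf9, Lrrk1, Cd52 and Sh3d19, at distances of 0.05 to 0.09. Slamf9 and Cd52 are genes of leukocytes. Cd52 read 132 in d/d heart against 49.8 in f/f heart (log2 difference 1.40), and its muscle difference was -0.43. Closest to Cd163 were Slc25a22, Pdk4, Dleu2, Misp3 and Top3b, at 0.12 to 0.18. Of these, Pdk4, a kinase that restrains pyruvate dehydrogenase in muscle, read 1235 in d/d heart against 2766 in f/f heart, and 800 in d/d muscle against 2827 in f/f muscle.

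Closest to Lgals3 were Pamr1, Col8a2, Svep1, Plcxd2 and Ptn, at 0.43 to 0.50. Their heart log2 differences were 2.31 to 2.78, against 3.53 for Lgals3, and their muscle differences -0.13 to 0.61, against 0.71. Svep1, an extracellular matrix gene, read 282 in d/d heart against 43.0 in f/f heart, and 34.6 in d/d muscle against 28.2 in f/f muscle. Closest to Retnla were Sfrp4, 2310040G24Rik, Tnfrsf19, Amy1 and Mlxipl, at 0.63 to 0.80. Closest to Mrc1 were Cggbp1, Fam168b, Rasa1, Glt8d1 and Imp4, at 0.03 to 0.04. Profiles were not scaled to a common size, so distances are not compared between members with large and small differences. With 4 arrays such distances describe only these samples.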

How the data were processed

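RNA of 4 mouse samples was measured, 1 array each. The authors deposited intensity values on a linear scale, without detection calls. Their background correction and scaling are not given in the sources used here, and the 2% trimmed means run from 48.2 to 69.2. Here each array was scaled to a common 2% trimmed mean (64 control probe sets left out). Signals under 7.51, the mean over arrays of the 40th percentile, were set to that floor, and log2 was taken. A gene whose probe set was at the floor on both arrays of a comparison counts as not measured there, and with 1 array at the floor its fold is a bound.

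Of 45037 probe sets 34945 had 1 gene symbol in the platform annotation, 932 had several and 9160 none. Entrez ids were looked up in a RefSeq table (34741 found, 0 symbols changed). The probe set brightest on average (mean log2) stands for its gene. The arrays limit precision by their number.

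The genes named are the 10 members, the genes of each list past 2-fold in either tissue or with the highest mean signal in it, and the 5 nearest profiles. In the lists of other cells and housekeeping genes, the gene with the highest mean signal was left unnamed where it was not past 2-fold, except Fabp4. Some others were chosen after their values were seen, among them the further probe sets of Cx3cl1, Csf1, Ccr2, C3ar1, H2-Ab1 and Cd86. The same holds for Arg1, Chil3, Nos2, Clec4e, Il1b, Ccr2, Il4, Il13, Il4ra, C1qb, C1qc, Tnni2, Lgals8 and Lgals3bp, with marker genes at the floor. Members, 21 partly overlapping lists (207 of 229 entries matched) and motifs were chosen with earlier results of these data known. Python 3.11.15 with pandas 2.3.3 and numpy 2.4.6 was used, and the code was tested on simulated data. Alternatives were 4 scalings, 3 floors and 2 rules for a gene's probe sets.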

Additional observations from a re-analysis of the deposited data

Results flagged for a closer look

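For 6 members the difference between d/d and f/f ran in opposite directions in heart and muscle, higher in d/d heart and lower in d/d muscle. With 1 array per group this contrast between the tissues was not tested. The heart difference minus the muscle difference, on the log2 scale, was 1.09 for Cd68, 1.20 for Csf1r, 1.13 for Adgre1, 1.13 for C1qa, 1.99 for Ctss and 0.51 for Mrc1. For Mrc1 both differences lay within the yardstick between probe sets, and for Csf1r the heart difference did.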

How the results depend on the processing

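Every difference rests on 1 array per group, and the number of arrays limits what can be said. No paired analysis was possible because each group holds 1 array. Under the 9 alternatives (4 scalings, 3 ways to treat low signals, 2 rules for a gene with several probe sets) no called difference reversed, and the member counts and pan-macrophage medians (54 values) kept their direction and stayed within 1.5 times or within the yardstick. Among the single genes and lists, 767 values stayed within the probe set yardstick and 50 moved beyond it. The cause of each move was not tested unless named here.

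Taking the median over probe sets left Cx3cr1 at 0.67 in heart, so 2 and not 3 members were past 2-fold higher, because its probe sets differ. Retnla in heart ranged from -2.46 to -1.80, the end nearer 0 coming from a floor at the 60th percentile, which its d/d signal does not reach. Cd163 ranged from -1.35 to -1.10 in heart and from -1.62 to -1.27 in muscle, Retnla from -2.27 to -1.95 in muscle, and Lgals3 from 3.33 to 3.64 in heart. Scaling to housekeeping genes moved the median of all genes in muscle to 0.21 and put Mrc1 at -0.08, Ctss at -0.19 and the pan-macrophage median at -0.32. The inflammatory median in muscle, -0.18, was 0.07 with that scaling and 0.09 with a floor at the 20th percentile, and in heart it was 1.04 with that floor.

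Counts over all genes past 2-fold higher and lower were 545 and 584 in heart and 376 and 463 in muscle. They were 1497 and 1921 in heart and 1663 and 1766 in muscle when the floor was lowered to the 20th percentile, and 320 and 249 in heart and 56 and 107 in muscle when it was raised to the 60th. In muscle they were 691 and 293 with housekeeping scaling and 203 and 450 without scaling, and in heart 535 and 814 without scaling.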
